A study of Homo sapiens with 4 samples.

Results

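TRA2A and TRA2B, the kinases CLK1, CLK2, CLK3 and CLK4, and the kinases SRPK1 and SRPK2 were described in A549 cells with less RBM10. These 8 genes were found by their Ensembl identifiers among the 17041 genes of the deposited expression table, each in 1 row. In the deposited splicing table they had 6 of 3768 events, of which 2 belonged to CLK1, 1 to CLK2 and 3 to CLK4. RBM10 binds pre-mRNA and influences which exons are kept, and A549 is a human lung adenocarcinoma cell line. In 2 libraries the cells had been transduced with a lentivirus encoding 1 shRNA against RBM10 and selected as a population with puromycin at 1 µg per mL for 10 to 14 days, per the labels. In 2 libraries the A549 cells were RBM10 wild type, and the labels do not say whether these cells received a control construct or puromycin. An effect of less RBM10 therefore cannot be told apart from one of transduction or selection. All 4 libraries carry 1 batch label, and separate cultures are not stated for the replicates. The p-values therefore set differences between the groups against a spread within the groups that may be only technical.

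TRA2A and TRA2B are sequence-specific splicing factors with arginine-serine (RS) domains that bind purine-rich exonic sequence and promote exon inclusion. The activity and location of SR proteins, the larger family of RS-domain splicing factors, depend on phosphorylation of their RS domains. SRPK kinases phosphorylate SR proteins mainly in the cytoplasm and favour their nuclear import, whereas CLK kinases act in the nucleus and release SR proteins from nuclear speckles. CLK1 also regulates splicing of its own transcript, in which skipping of exon 4 or retention of the neighbouring introns yields RNA that does not encode the full kinase.

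Levels are given in RPKM, a unit inferred from the values, which divides reads by gene length and by the size of the library. In a library, 9502 to 10113 genes were at 1 RPKM or more. Relative depth was only estimated, from the commonest exact ratio of low values to wild-type replicate 2. By this estimate the knockdown libraries had 84.5% and 95.6% of the depth of the deepest library, and the wild-type libraries 99.0% and 100%. The commonest ratio was held by 262 and 250 genes in knockdown and 316 in wild-type replicate 1, and the next ratio by 194, 218 and 169. RBM10 mRNA was at 11.6 and 10.9 RPKM in the knockdown libraries, against 35.5 and 40.8 RPKM in the wild-type libraries, which is the direction given by the labels. The epithelial keratin gene KRT18 was at 1731 and 1855 RPKM in knockdown and at 890.3 and 972.7 RPKM in wild type; KRT8 and EPCAM also lay higher in both knockdown libraries, and the part of this difference in the results was not tested. The leukocyte genes PTPRC and CD3E were not listed in the table, and the endothelial gene PECAM1 was at or below 0.0130 RPKM in every library. Of the fibroblast genes, DCN was not listed, and PDGFRB was at 0.0595 and 0.0736 RPKM in knockdown and at 0.0102 and 0.0101 RPKM in wild type. The lung factors NKX2-1 and SFTPB were not listed either, and NAPSA was below 0.74 RPKM in every library. In bulk libraries, fewer cells of a type and less RNA per cell cannot be told apart.

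Of the 6 splicing events, 4 concerned exon 4 of a CLK gene, whose sequence is shown for CLK1 and CLK4 because listed junctions include or skip it, and for CLK2 because its listed junctions differ in where it begins. Sequences are on the minus strand of hg38, 5′ to 3′, and were read from GENCODE v29 transcripts. For CLK1 (chr2:200860105-200860245) and CLK4 (chr5:178617324-178617464), capitals mark exon 4 and lower case marks the neighbouring intron. For CLK2 (chr1:155268773-155268825), capitals mark the 3 bases that are exonic only when the upstream of both 3′ splice sites is used.
CLK1: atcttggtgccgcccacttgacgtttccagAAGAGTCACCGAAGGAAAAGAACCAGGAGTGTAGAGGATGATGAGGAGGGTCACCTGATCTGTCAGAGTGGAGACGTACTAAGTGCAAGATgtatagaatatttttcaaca
CLK4: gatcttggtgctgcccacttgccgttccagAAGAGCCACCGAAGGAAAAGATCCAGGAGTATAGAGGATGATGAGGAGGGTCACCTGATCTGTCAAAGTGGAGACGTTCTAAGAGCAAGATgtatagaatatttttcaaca
CLK2: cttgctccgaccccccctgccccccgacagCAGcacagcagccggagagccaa

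Exon 4 was 91 bases long in both CLK1 and CLK4, and 85 of the 91 bases were identical (93.4%), as were all 20 intron bases that follow it. Its length leaves a remainder of 1 when divided by 3, so skipping shifts the reading frame. In GENCODE v29, 1 CLK1 transcript joins exon 3 to exon 5 and is annotated as a target of nonsense-mediated decay, and so is 1 of 2 such CLK4 transcripts. In each gene, 1 transcript that includes exon 4 carries the same annotation, beside 2 protein-coding ones in CLK1 and 3 in CLK4. The motif AGAA, a core of TRA2 binding sites, was searched on the RNA strand only. It occurred 1 time in exon 4 of CLK1 and 0 times in that of CLK4, and 53.7% of 1129 internal coding-transcript exons of 91 bases held it. GAAGAA occurred in neither exon and in 11.4% of the same 1129 exons. Reads were 100 bp, longer than the exon, so a read that spans all of exon 4 also covers the bases that differ. A read that reaches only part of the exon may cover none of them. The rule by which such reads were assigned is not stated in the labels.

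The splicing factor TRA2A was the 1 member past the test, and its mRNA fell in the knockdown. TRA2A (ENSG00000164548; chromosome 7, 23504780 to 23532041) was at 12.2 and 13.5 RPKM in the knockdown libraries, against 21.7 and 18.0 RPKM in the wild-type libraries. Both knockdown values lay below both wild-type values, and on average the knockdown level was 64.7% of that in wild type. The log2 change was -0.59 (SE 0.12; 95% interval -0.85 to -0.32; limma, BH adjusted p = 0.00684), on the log2(RPKM + 1) scale that applies to all changes given here. Of all tested genes, 1.60% had a lower log2 change. By its mean level over all 4 libraries, TRA2A lay above 75.1% of tested genes.

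TRA2B (ENSG00000136527; chromosome 3, 185915906 to 185938136), the paralog of TRA2A and the more abundant of the pair, was at 22.8 and 22.6 RPKM in knockdown and at 28.5 and 26.3 RPKM in wild type. These groups did not overlap either, but the log2 change of -0.26 (SE 0.099; 95% interval -0.48 to -0.038) did not pass after adjustment (limma, adjusted p = 0.0914). Its interval lies below 0 without adjustment, with an unadjusted limma p of 0.0263. Added together, TRA2A and TRA2B reached 35.0 and 36.1 RPKM in knockdown, against 50.2 and 44.3 RPKM in wild type, so their summed level in knockdown was 75.2% of that in wild type. The TRA2A share of this sum was 34.9% and 37.3% in knockdown and 43.2% and 40.6% in wild type, without overlap. The log2 ratio of TRA2A over TRA2B was -0.82 ± 0.11 in knockdown and -0.47 ± 0.11 in wild type (SD, n = 2 each), a difference of -0.35. An exact two-sided permutation test over the 4 libraries gave p = 0.333 for that difference, which is the smallest p that 2 against 2 libraries allow (BH adjusted p = 0.5 over 3 ratios). Neither TRA2 gene had an event in the splicing table. That table lists only events whose PSI spreads by 0.15 or more over the libraries, so an absent event does not show equal exon use.

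**Figure D1:**
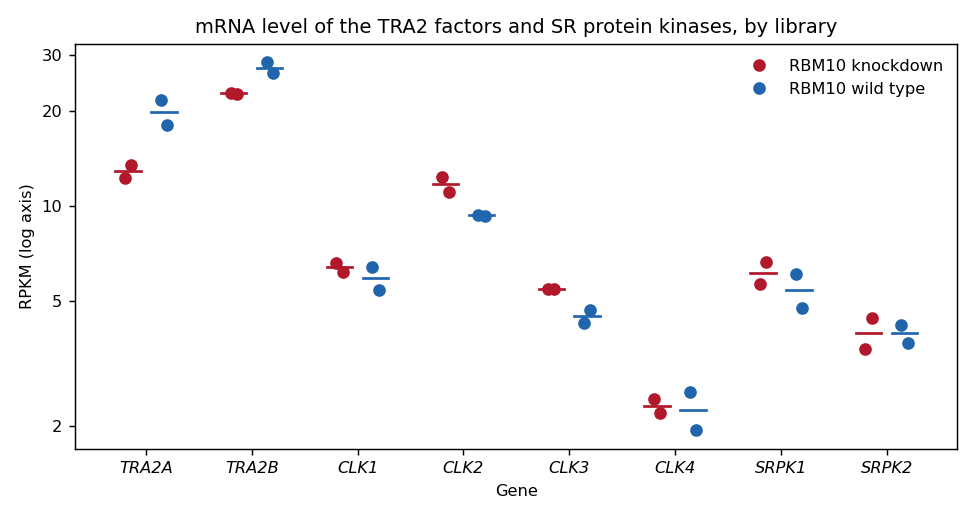
Level of each gene in each library, in RPKM on a log axis, with knockdown in red left of wild type in blue; points are libraries (2 per group) and lines are group means. TRA2A, TRA2B, CLK2 and CLK3 show no overlap between the groups, with TRA2A at 12.2 and 13.5 RPKM in knockdown and at 21.7 and 18.0 RPKM in wild type.

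None of the nuclear CLK kinases passed the test, although CLK2 and CLK3 lay higher in both knockdown libraries. CLK2 (ENSG00000176444; chromosome 1, 155262868 to 155278491), the most abundant of the CLK kinases, was at 12.4 and 11.1 RPKM in knockdown and at 9.33 and 9.30 RPKM in wild type. Its log2 change was 0.30 (SE 0.11; 95% interval 0.060 to 0.54; limma, adjusted p = 0.0742), with an unadjusted p of 0.0195. CLK3 (ENSG00000179335; chromosome 15, 74598500 to 74645414) was at 5.42 and 5.44 RPKM in knockdown and at 4.25 and 4.68 RPKM in wild type. The groups did not overlap, and the log2 change was 0.24 (95% interval -0.013 to 0.49; limma, adjusted p = 0.160).

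CLK1 and CLK4, the pair with the near-identical exon 4, showed overlapping groups. CLK1 (ENSG00000013441; chromosome 2, 200853009 to 200864744) was at 6.59 and 6.18 RPKM in knockdown and at 6.39 and 5.41 RPKM in wild type, with a log2 change of 0.10 (95% interval -0.16 to 0.37; limma, adjusted p = 0.578). CLK4 (ENSG00000113240; chromosome 5, 178602664 to 178630615), the least abundant member, was at 2.44 and 2.20 RPKM in knockdown and at 2.56 and 1.94 RPKM in wild type. Its log2 change was 0.038 (95% interval -0.25 to 0.33; limma, adjusted p = 0.863), and its sign turned under quantile and cyclic loess normalization (-0.096 and -0.060). The log2 ratio of CLK1 over CLK4 was 1.46 ± 0.040 in knockdown and 1.40 ± 0.11 in wild type (SD, n = 2 each), and these values overlapped (exact permutation p = 0.667). Summed over the 4 CLK genes, the level was 26.8 and 24.9 RPKM in knockdown, against 22.5 and 21.3 RPKM in wild type. This sum was not tested, and of the 4 genes only CLK2 and CLK3, neither past the test, lay higher without overlap.

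The cytoplasmic SRPK kinases differed more within the groups than between them. SRPK1 (ENSG00000096063; chromosome 6, 35832966 to 35921342) was at 5.64 and 6.64 RPKM in knockdown and at 6.08 and 4.73 RPKM in wild type. Its log2 change was 0.16 (95% interval -0.14 to 0.46; limma, adjusted p = 0.437). SRPK2 (ENSG00000135250; chromosome 7, 105110704 to 105399308) was at 3.50 and 4.41 RPKM in knockdown and at 4.20 and 3.68 RPKM in wild type, with a log2 change of 0.0018 (95% interval -0.29 to 0.29; limma, adjusted p = 0.995). The intervals still allow a rise of up to 0.46 for SRPK1 and 0.29 for SRPK2 on the log2 scale. The log2 ratio of SRPK1 over SRPK2 was 0.64 ± 0.068 in knockdown and 0.45 ± 0.12 in wild type (SD, n = 2 each; exact permutation p = 0.333, the smallest possible), without overlap.

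In total, 1 of the 8 genes passed as lower and 0 passed as higher in limma, while at an unadjusted p under 0.05 there were 2 lower and 1 higher. Among all 10182 tested genes, 7.03% passed as lower, 15.3% as higher and 22.3% in either direction, so these counts are no result about the 8 genes as a group. The groups did not overlap in 4 of the 8 genes, 2 lower and 2 higher. Over all tested genes, 27.3% were lower and 34.3% higher without overlap, together 61.5%. The median log2 change of the 8 genes was 0.070, and that of all tested genes was 0.023. CLK2, CLK3, SRPK1 and SRPK2 overlap a listed gene on the opposite strand (HCN3, EDC3, LHFPL5 and KMT2E, in that order). Whether the counting used strand is not given in the sources used here. CLK2, CLK3 and SRPK2 also have annotated pseudogenes (CLK2P1, CLK3P2 and SRPK2P) that were not listed, and reads shared with them were not examined.

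**Figure D2:**
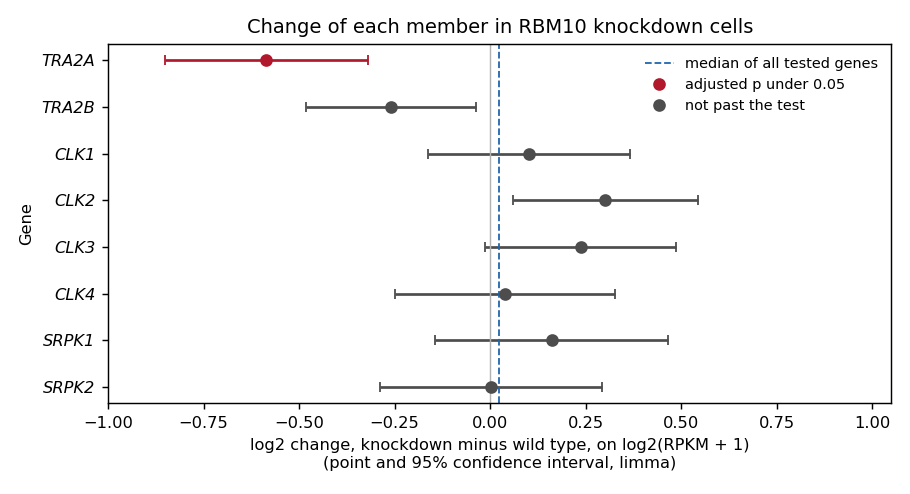
Change of each gene as knockdown minus wild type on the log2(RPKM + 1) scale; points are limma estimates from 2 libraries per group and bars are 95% confidence intervals. Only TRA2A, in red, passed at an adjusted p under 0.05, at -0.59; the dashed line marks the median of all tested genes, 0.023.

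The order of the levels, which RPKM, the inferred unit, allows to be compared between genes per length, was the same in knockdown and wild type. From high to low it ran TRA2B, TRA2A, CLK2, CLK1, SRPK1, CLK3, SRPK2 and CLK4. In knockdown, the TRA2A libraries (12.2 and 13.5 RPKM) overlapped those of CLK2 (11.1 and 12.4 RPKM), whereas in wild type the mean of TRA2A was 2.13 times that of CLK2 without overlap. CLK1 and SRPK1 overlapped in both groups, and the other neighbours in the order did not. The mean of the most abundant gene, TRA2B, was at 22.7 RPKM in knockdown and 27.4 RPKM in wild type, and that of the least abundant, CLK4, at 2.32 RPKM in knockdown and 2.25 RPKM in wild type.

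Across the 4 libraries, SFPQ and TNPO3 were among the tested genes whose log2(RPKM + 1) values, centred on their mean, lay nearest to those of TRA2A. Their Euclidean distances were 0.0453 and 0.0475 log2 units over 4 libraries. SFPQ, an RNA-binding protein of nuclear paraspeckles, was at 35.0 and 39.4 RPKM in knockdown and at 59.5 and 50.8 RPKM in wild type. TNPO3, the import receptor that carries phosphorylated SR proteins into the nucleus, was at 14.8 and 16.8 RPKM in knockdown and at 25.9 and 21.4 RPKM in wild type. In TRA2A, SFPQ and TNPO3, knockdown replicate 1 was lowest and wild-type replicate 1 highest, so the likeness includes differences within the groups. Over all tested genes, too, same-numbered libraries deviated in opposite directions (correlation -0.44). How many other genes lay about as near was not counted, and shared control of these genes was not tested.

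Both junctions of exon 4 of CLK1 had a lower PSI in both knockdown libraries, although neither passed after adjustment. PSI, a fraction from 0 to 1, gives how much of the junction usage at a site falls to the examined junction, and the set of junctions it is taken over is not defined in the labels. The junction from exon 3 to exon 4 of CLK1 (chromosome 2, 200860215 to 200861238) had a PSI of 0.542 and 0.606 in knockdown, against 0.803 and 0.702 in wild type. The junction from exon 4 to exon 5 (200859746 to 200860125) had a PSI of 0.481 and 0.512 in knockdown, against 0.787 and 0.684 in wild type. In both junctions all knockdown values lay below all wild-type values. The background junction was the same in both events, the skipping junction from exon 3 to exon 5 (200859746 to 200861238), so they are not independent readings. The authors' table annotates them as alternative 3′ and 5′ splice sites, and the junction ends place them on either side of exon 4.

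The difference in PSI was -0.18 (95% interval -0.39 to 0.038; limma, adjusted p = 0.289) for the exon 3 to exon 4 junction of CLK1. For the exon 4 to exon 5 junction it was -0.24 (95% interval -0.45 to -0.026; limma, adjusted p = 0.266), with an unadjusted p of 0.0331. Of all 3744 events with values in every library, 84.6% had a smaller absolute difference than the exon 4 to exon 5 junction. For the exon 3 to exon 4 junction this share was 65.7%. All these events were listed for a PSI spread of 0.15 or more over the libraries, so the shares hold among such events only. The mRNA level of CLK1, at 6.39 ± 0.290 RPKM in knockdown and 5.90 ± 0.694 RPKM in wild type (SD, n = 2 each), did not pass the test.

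**Figure D3:**
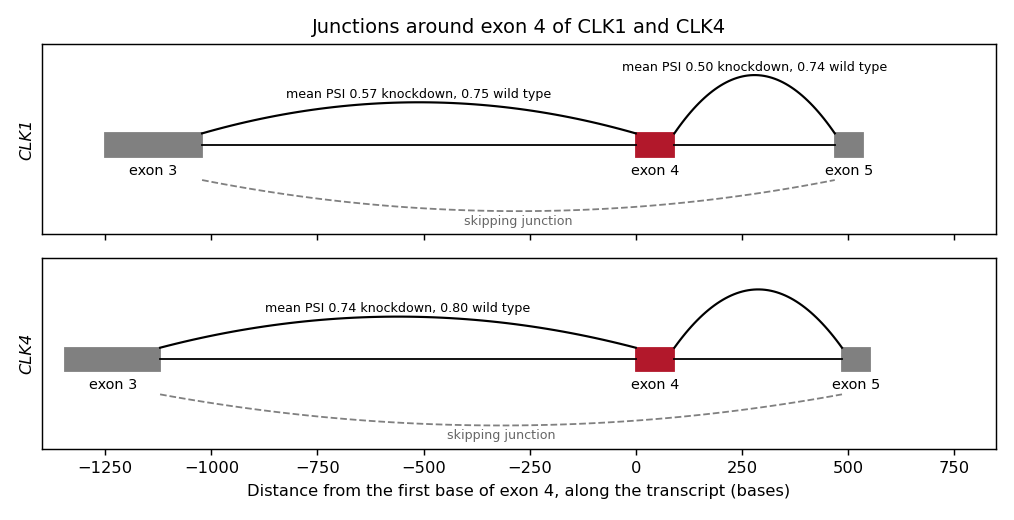
Exons 3 to 5 of CLK1 (above) and CLK4 (below) drawn to scale by distance from the first base of exon 4, in bases along the transcript; solid arcs are inclusion junctions with the mean PSI of each listed event, dashed arcs the skipping junction. In CLK1 the mean PSI was 0.57 in knockdown and 0.75 in wild type before exon 4, and 0.50 in knockdown and 0.74 in wild type after it.

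The matching exon of CLK4 showed no separation of the groups. Its exon 3 to exon 4 junction (chromosome 5, 178617434 to 178618556) had a PSI of 0.778 and 0.708 in knockdown and of 0.719 and 0.875 in wild type, against the skipping junction. The difference was -0.054 (95% interval -0.29 to 0.18; limma, adjusted p = 0.762). In CLK1 the introns before and after exon 4 measured 1022 and 378 bases, and in CLK4 1121 and 395 bases. Whether the CLK1 and CLK4 differences differ from each other was not tested.

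The 2 other CLK4 events set the junction from exon 2 to exon 3 (178618778 to 178623256) against one that joins an exon lying between them to exon 3 (178618778 to 178619838), each examined with the other as background. The exon 2 to exon 3 junction had a PSI of 0.765 and 0.326 in knockdown and of 0.621 and 0.791 in wild type. The junction from the exon between them had a PSI of 0.114 and 0.600 in knockdown and of 0.294 and 0.171 in wild type. Knockdown replicate 2 stood apart from the other 3 libraries in both events, and without it the differences turned sign, to 0.059 and -0.12. Neither event passed (limma, adjusted p = 0.546 and 0.672). The 2 PSI summed to 0.878 to 0.961 over the libraries, so these 2 junctions alone do not make up the denominator of both events.

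The upstream of 2 adjacent 3′ splice sites at exon 4 of CLK2 had a higher PSI in both knockdown libraries, but did not pass after adjustment. These sites lie 3 bases apart in a run of cag and CAG, and give an exon 4 of 88 or 85 bases. The junction to the longer exon (chromosome 1, 155268795 to 155269488) had a PSI of 0.684 and 0.689 in knockdown, against 0.437 and 0.523 in wild type, without overlap. The difference was 0.21 (95% interval -0.0019 to 0.42; limma, adjusted p = 0.269; unadjusted p = 0.0516), and 76.3% of all tested events had a smaller absolute difference. Using either site keeps the reading frame.

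**Figure D4:**
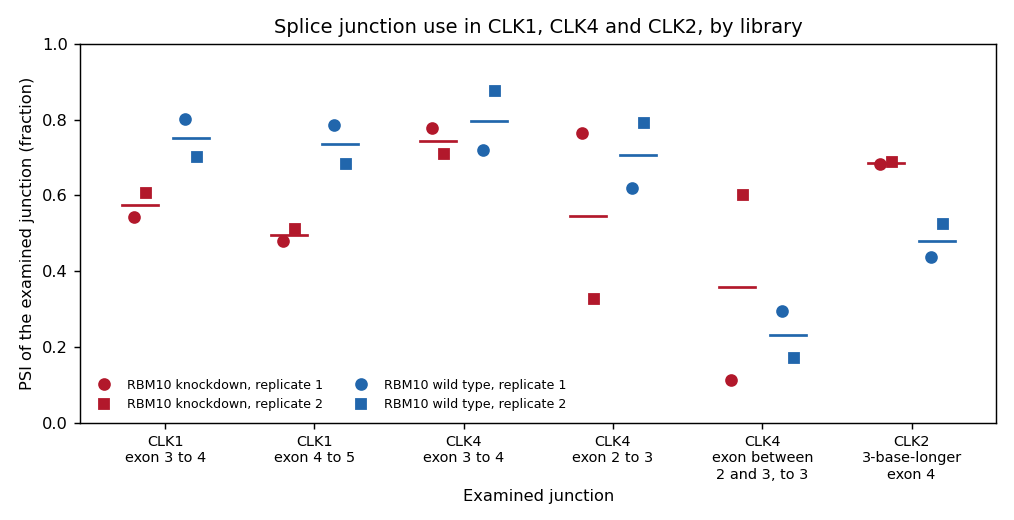
PSI (fraction) of the examined junction of each listed CLK event in each library, knockdown in red left of wild type in blue; circles are replicate 1, squares replicate 2 and lines group means. Both CLK1 junctions lie lower and the CLK2 junction higher in knockdown without overlap, while knockdown replicate 2 of CLK4 stands apart at 0.326 and 0.600.

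None of the 6 events passed limma at an adjusted p under 0.05 with a difference of 0.1 or more, and 1 had an unadjusted p under 0.05 with such a difference. Among the 3744 tested events, 0.107% passed the adjusted test, and 18.4% met the unadjusted rule. The groups did not overlap in 3 of the 6 events, against 54.2% of all tested events. The median absolute PSI difference of all tested events was 0.144. As events were listed only at a PSI spread of 0.15 or more, these shares and this median do not describe splice junctions in general. PSI is given without read numbers, so its depth is not stated and single values carry no interval.

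Among the substrates of these kinases, 4 SR protein genes fell. Of 12 SRSF genes 10 were tested, and 4 fell and 0 rose in limma, where 7.03% of all tested genes fell and 15.3% rose; 5 were lower and 0 higher at an unadjusted p under 0.05. Their median log2 change was -0.30, against 0.023 over all tested genes. The groups did not overlap in 6 lower genes and 1 higher gene, against 27.3% lower and 34.3% higher of all tested genes. This list and the gene lists below were chosen with earlier results of these data known. Their counts and medians are therefore no test of any list as a group. SRSF2, a nuclear SR protein that activates exons, was at 27.3 and 27.4 RPKM in knockdown, against 36.1 and 37.2 RPKM in wild type, and SRSF7 was at 66.5 and 69.2 RPKM in knockdown, against 87.2 and 85.6 RPKM in wild type. Those that fell were SRSF2, SRSF3, SRSF7 and SRSF6, with log2 changes of -0.41, -0.36, -0.34 and -0.34 (limma, adjusted p = 0.0133, 0.0211, 0.0237 and 0.0379). TRA2A, which shares their RS domain, had a lower log2 change (-0.59) than any of these 4.

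Of 15 other RS-domain proteins, 3 fell and 0 rose in limma, against 7.03% and 15.3% of all tested genes, with 4 lower and 0 higher at an unadjusted p under 0.05. Their median log2 change was -0.12. U2AF2, the large subunit of the factor that recognises the 3′ splice site, was at 84.3 ± 6.60 RPKM in knockdown and 161 ± 15.8 RPKM in wild type (SD, n = 2 each; adjusted p = 0.000283). LUC7L, a U1 snRNP-associated protein, and ACIN1, a component of the exon junction complex periphery, had log2 changes of -0.50 and -0.37 (adjusted p = 0.00687 and 0.0337). These lists held 13 splicing events, and the groups did not overlap in any of them, yet 0 passed limma's adjusted test and 3 met the unadjusted rule. Of all tested events, the groups did not overlap in 54.2%, and 18.4% met the unadjusted rule. Several of the 13 are reciprocal readings of 1 pair of junctions.

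Among genes that move SR proteins or act on their phosphorylation, the counts were small. Of 8 genes for nuclear import, phosphatases and SRPK chaperones, 2 fell and 0 rose in limma, where 22.3% of all tested genes passed in either direction and 7.03% as lower. At an unadjusted p under 0.05, 3 were lower and 0 higher, and the median log2 change was -0.21. TNPO3 fell by 0.55 on the log2 scale (limma, adjusted p = 0.0108). HSPA8, a constitutive HSP70 chaperone that binds SRPK1, was at 201 ± 3.85 RPKM in knockdown and 339 ± 35.6 RPKM in wild type (SD, n = 2 each; adjusted p = 0.000689). The phosphatase genes PPP1CA, PPP1CB, PPP1CC and PPP2CA did not pass, with log2 changes between -0.27 and 0.15.

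Of 13 other kinases and related enzymes reported to phosphorylate splicing factors or to belong to the same kinase branch, 8 were tested, and 2 rose and 0 fell in limma (0 lower at an unadjusted p under 0.05), against 15.3% of all tested genes that rose and 7.03% that fell. DYRK1B, of the DYRK family related to the CLK kinases, was at 7.34 ± 0.851 RPKM in knockdown and 4.62 ± 0.549 RPKM in wild type (SD, n = 2 each; adjusted p = 0.0107). AKT1, which can act upstream of SRPK kinases, was at 47.9 ± 2.04 RPKM in knockdown and 36.0 ± 2.16 RPKM in wild type (adjusted p = 0.0171). The median log2 change of this list, 0.069, was near that of the TRA2, CLK and SRPK genes. Of its 7 listed events, 5 had values in every library and were tested; 0 passed limma's test, 0 met the unadjusted rule, and the groups did not overlap in 2, against 54.2% of all tested events.

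**Figure D5:**
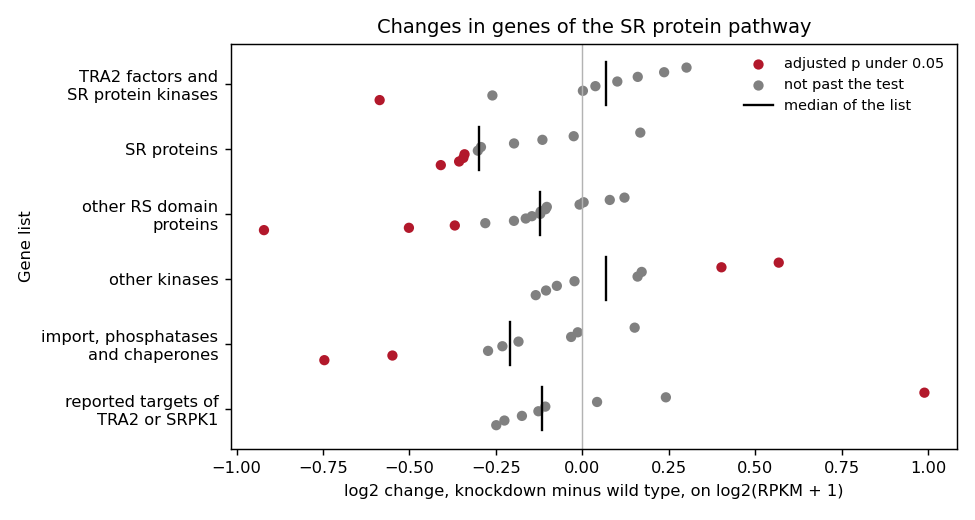
Log2 change, knockdown minus wild type, of every tested gene in 6 lists of the SR protein pathway, on the log2(RPKM + 1) scale; points are genes, red where the adjusted p was under 0.05, and black lines are list medians. The median was 0.070 in the TRA2 factors and SR protein kinases and -0.30 in the SR proteins.

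Among 9 genes reported as targets of splicing control by TRA2 proteins or SRPK1, 8 were tested, and CD44, a cell surface receptor whose variable exons respond to TRA2B, rose while 0 fell in limma (1 lower at an unadjusted p under 0.05), against the same 15.3% and 7.03%, with a median log2 change of -0.12. CD44 was at 25.3 ± 1.09 RPKM in knockdown and 12.2 ± 1.26 RPKM in wild type (SD, n = 2 each; adjusted p = 0.00023). Of 4 splicing events in these genes, 0 passed limma's test and 0 met the unadjusted rule. An alternative 3′ splice site of MKNK2, a kinase whose last exons are chosen under SRSF1 control, had a PSI of 0.306 and 0.367 in knockdown, against 0.185 and 0.167 in wild type (limma, adjusted p = 0.294). The cassette exon junction listed for CHEK1, a checkpoint kinase with an exon that depends on TRA2 proteins, had a PSI of 0.720 and 0.583 in knockdown, against 0.536 and 0.370 in wild type (adjusted p = 0.291). Both of these events were without overlap between the groups, as were 54.2% of all tested events, and whether the CHEK1 junction is at the TRA2-dependent exon was not examined. The other two events overlapped. An intron retention event of CHEK1 had a PSI of 0.186 and 0.333 in knockdown and of 0.415 and 0.254 in wild type, and a cassette exon of PPP1R12A, a myosin phosphatase subunit, had 0.685 and 0.513 in knockdown and 0.516 and 0.548 in wild type. SMN1 and SMN2, which are near-identical and may share reads, did not pass (adjusted p = 0.143 and 0.111).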

How the data were processed

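RNA selected by its poly-A tail was sequenced in 4 A549 libraries as paired reads of 100 bp, per the labels. STAR 2.6.1 and hg38 are named, per the submitters' processing notes. The sources used here do not name the counter, the splicing caller or the use of strand. As deposited by the authors, gene values have the form of RPKM, a unit inferred from the values, and PSI is a fraction, per the file headers. Relative depth is the commonest exact ratio of low RPKM values between libraries. Of 17041 IDs, 16921 were named by an ID-to-symbol table, 85 by GENCODE v29 and 35 by neither.

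Here, log2(RPKM + 1) was compared with limma 3.58.1 in R 4.3.3 (trend, two-sided, Benjamini-Hochberg over all 10182 genes with a group mean of 1 RPKM or more, threshold 0.05), with no covariate. PSI of 3744 complete events was compared likewise, without trend, and also needed a difference of 0.1. Paralog ratios had exact permutation tests. The limma steps were tested on simulated data. Alternatives were another pseudocount, no filter, 3 normalizations, a replicate block, the logit scale, no minimum difference, and each library left out. Members and lists were chosen with earlier results of these data known. Of each list, up to 4 genes past the test with the largest change were named, with all listed events of the 8 genes and, for a gene past the test, the 3 nearest genes, of which 1 is not reported here. CHEK1, MKNK2, PPP1R12A, SMN1, SMN2, the phosphatases and the markers were named outside this rule.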

Additional observations from a re-analysis of the deposited data

How the results depend on the processing

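TRA2A was lower under all 11 alternatives (log2 change -0.71 to -0.46, limma adjusted p = 0.000741 to 0.0499, the highest of these with no filter). The count of genes lower in knockdown, 716, became 322 with no filter and 438 with the replicate number as a block, and 413 to 657 without 1 library, lowest without knockdown replicate 1; without knockdown replicate 2 it was 438. Quantile normalization gave 1140 higher and 1031 lower genes, against 1555 and 716. The same-numbered libraries deviated in opposite directions (correlation -0.44 over genes), so a crossed pairing was added after seeing the data. It gave 2466 higher and 1730 lower genes, and 2 higher (CLK2 and CLK3) and 2 lower (TRA2A and TRA2B) of the 8 genes. Because the crossed pairing was picked from the deviations of these same values, its calls are no support for a change in these genes. With the replicate block, 1 of the 8 genes was lower and 0 higher, as without it. Splicing events passing, 4, became 62 with the replicate block (correlation -0.040 over events), and 0 without any 1 library; none of the 6 CLK events passed in any setting.

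Some log2 changes that did not pass turned sign. CLK4 was at -0.096 and -0.060 and SRPK2 at -0.10 and -0.048 under quantile and cyclic loess normalization, and SRPK2 at -0.017 with TMM-like factors. Without 1 library, CLK1 ranged from -0.0015 to 0.20, CLK4 from -0.10 to 0.18, SRPK2 from -0.13 to 0.13, and the ratio of CLK1 over CLK4 from -0.020 to 0.14. The PSI differences of CLK4 then ranged from -0.38 to 0.059 (exon 2 to 3), -0.12 to 0.37 (the exon between them to 3) and -0.13 to 0.024 (exon 3 to 4), while those of CLK1 ranged from -0.29 to -0.13 and that of CLK2 from 0.16 to 0.25. The cause was not tested. With 2 libraries a group and no stated PSI depth, small changes are not detectable here.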
